A study of Homo sapiens with 12 samples.

Results

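The pyruvate dehydrogenase complex and the enzymes that switch it off and on were followed in C4.2B cells. The 10 genes were taken by name from the count files, which list 23228 genes: 5 subunits of the complex (PDHA1, PDHB, DLAT, DLD and PDHX), 4 inhibitory kinases (PDK1 to PDK4) and 1 activating phosphatase (PDP1). All 10 had a row in every library, and 9 passed the filter on low counts, which removed PDK4. C4.2B is an established human line of castration-resistant prostate cancer with an alteration that activates the PI3K pathway. PolyA RNA was sequenced in 12 libraries, 3 (A, B and C) in each of 4 arms. The DMSO arm received vehicle, the GDC arm received GDC-0941, which inhibits the class I PI3 kinases, at 0.5 µM for 24 h, and the GSK arm received GSK126 at 5 µM, which inhibits EZH2, the methyltransferase that places the repressive mark H3K27me3. The COMBO arm received both agents. All 4 arms were kept for those 24 h in 10% charcoal-stripped serum, which is low in steroids. The GSK and COMBO arms had been pretreated with GSK126 for 6 days, so the agents differed in length of exposure, and agent and exposure cannot be told apart. The study describes plates seeded in triplicate, so that the p-values measure the spread between these plates, which may be technical.

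The complex sits in the mitochondrial matrix and converts pyruvate to acetyl-CoA, which joins glycolysis to the TCA cycle. PDHA1 and PDHB form the E1 component, which decarboxylates pyruvate with thiamine pyrophosphate as cofactor. DLAT is the E2 component, which carries the lipoyl arm and forms acetyl-CoA. DLD is the E3 component, which reoxidises the lipoyl arm and also serves the related dehydrogenases of 2-oxoacids, and PDHX binds E3 to the E2 core. The kinases phosphorylate serines of PDHA1 and so switch the complex off, and the phosphatase PDP1 removes those phosphates. PDK1 is a known target of hypoxia-inducible factor, and PDK4 is known as a gene that fasting and FOXO factors turn on. Only transcripts were measured here, not phosphorylation of PDHA1 or the activity of the complex.

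Each library held between 8785218 and 44437751 counts in genes, and the deepest library was DMSO C. The share of uniquely mapped reads outside genes was 15.4% ± 0.523 with DMSO, 17.0% ± 0.280 with GDC, 20.6% ± 0.342 with GSK and 23.9% ± 1.20 with COMBO (SD, n = 3), so it moved with the arms in the order in which the subunits fell, and its part in the results was not tested. All 8 prostate markers looked at stood at 47.7 CPM (counts scaled to library size) or more in every library, and 7 of 8 markers of other cell types were under 1 CPM in every library. The exception was COL1A1, at means of 10.5, 11.9, 30.3 and 35.8 CPM in DMSO, GDC, GSK and COMBO, while its fibroblast partner COL1A2 was at 0 in 11 of 12 libraries. The summed level of these 8 markers was 10.3 to 11.5 CPM with DMSO, 10.8 to 13.7 with GDC, 25.3 to 37.5 with GSK and 27.7 to 46.3 with COMBO. Its part in the results was not tested. In these bulk samples fewer cells and less RNA per cell cannot be told apart.

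RefSeq promoters (GRCh38.p14, 250 bases before to 50 after a start) were listed for 9 of the 10 genes, PDP1 being without an entry. The 250 bases before the start are shown for the subunit that fell most (DLAT), for a kinase that fell (PDK1), for the kinase that rose (PDK2) and for the kinase with almost no counts (PDK4), since these 4 genes carry the contrasts described below. They lie at chr11:112025158-112025407 on the plus strand (DLAT), chr2:172555840-172556089 on the plus strand (PDK1), chr17:50095101-50095350 on the plus strand (PDK2) and chr7:95596517-95596766 on the minus strand (PDK4), and each is written 5′ to 3′ towards its gene. Capitals mark ACGTG, the core of the hypoxia response element, on either strand, and its longer form CACGTG, the E-box that MYC and related factors bind, which contains ACGTG on both strands.
DLAT: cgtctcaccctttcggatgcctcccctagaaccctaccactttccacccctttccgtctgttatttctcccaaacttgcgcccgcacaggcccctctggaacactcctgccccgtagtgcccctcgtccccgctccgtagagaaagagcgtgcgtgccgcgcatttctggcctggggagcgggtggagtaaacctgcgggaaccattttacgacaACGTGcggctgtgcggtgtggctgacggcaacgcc
PDK1: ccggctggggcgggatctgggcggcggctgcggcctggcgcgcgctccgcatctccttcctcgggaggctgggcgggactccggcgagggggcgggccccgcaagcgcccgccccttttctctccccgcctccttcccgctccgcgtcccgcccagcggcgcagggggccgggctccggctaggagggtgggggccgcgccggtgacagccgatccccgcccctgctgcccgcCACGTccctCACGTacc
PDK2: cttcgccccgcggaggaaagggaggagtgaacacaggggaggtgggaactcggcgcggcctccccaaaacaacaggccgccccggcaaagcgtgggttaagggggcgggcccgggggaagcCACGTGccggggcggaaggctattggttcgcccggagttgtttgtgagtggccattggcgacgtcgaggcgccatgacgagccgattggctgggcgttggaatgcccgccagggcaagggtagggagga
PDK4: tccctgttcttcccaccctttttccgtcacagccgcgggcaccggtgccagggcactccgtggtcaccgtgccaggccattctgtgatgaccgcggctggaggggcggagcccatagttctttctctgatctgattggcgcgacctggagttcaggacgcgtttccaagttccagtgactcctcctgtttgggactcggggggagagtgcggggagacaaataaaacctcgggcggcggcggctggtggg
The PDK1 promoter held 2 copies of ACGTG, with first bases 17 and 8 bases before the start, and the DLAT promoter held 1, at 35 bases before it. The PDK2 promoter held an E-box at 129 bases before the start. The PDK4 promoter held none of the 5 motifs searched on both strands, which were these, the FOXO letters TGTTTAC, the nuclear receptor half-site AAGGTCA and the NRF1 letters GCATGCGC. Among 35116 promoters of the same length, 7.26% held the E-box, 21.4% the hypoxia core, 3.42% the FOXO letters, 3.92% the half-site and 3.05% the NRF1 letters. These are matches of letters, not sites of binding.

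Summed over the 12 libraries, the 5 subunits had the most counts of the 10 transcripts, although PDK3 had more than PDHX in GDC C, COMBO A and COMBO C. In DMSO, the level per kb of exon union (all exons of the gene merged) was 108 CPM per kb ± 1.82 for DLD, 52.7 ± 2.29 for DLAT, 41.3 ± 0.879 for PDHX, 38.8 ± 0.880 for PDHA1 and 38.6 ± 0.334 for PDHB (SD, n = 3), and the last 2 did not differ beyond their spread. The regulators were lower, at 7.26 ± 0.481 for PDK3, 4.86 ± 0.246 for PDK1, 3.69 ± 0.349 for PDK2 and 3.34 ± 0.0837 for PDP1, and the libraries of the last 2 overlapped. In COMBO the order changed. DLAT moved from the second place among the subunits to the last, at 12.3 ± 0.967, and PDK2 became the leading kinase, at 7.20 ± 0.157, ahead of PDP1 at 4.49 ± 0.252, PDK3 at 4.38 ± 0.0981 and PDK1 at 2.18 ± 0.208. The order depended on the length used. With the length of the reference (MANE Select) transcript of each gene, PDK3 stood at 72.8 ± 4.82 in DMSO, above PDHX (61.5 ± 1.31) and PDHA1 (57.3 ± 1.30). DLAT then stood at 103 ± 4.46 in DMSO, below both DLD (156 ± 2.63) and PDHB (121 ± 1.05). In COMBO it was again the lowest subunit, at 24.0 ± 1.88. With no length, the lowest subunit in COMBO was PDHX, at 76.2 CPM ± 5.89 beside 93.1 ± 7.30 for DLAT.

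**Figure D1:**
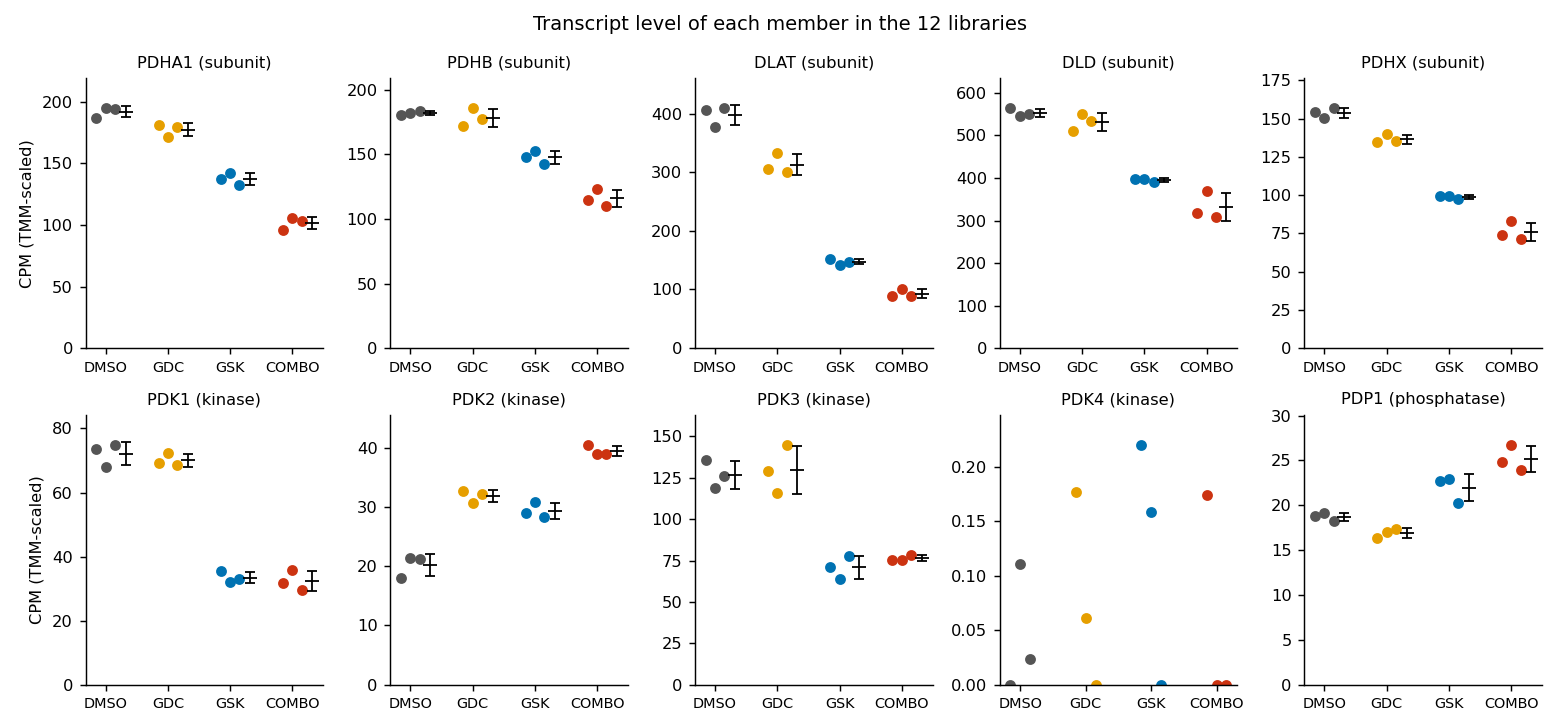
Level of each of the 10 transcripts in CPM (TMM-scaled, y axes from 0) in the 3 libraries of each arm (points, A to C from left to right), with mean and SD in black. The 5 subunits and PDK1 and PDK3 were lowest in GSK and COMBO, PDK2 and PDP1 were highest in COMBO, and PDK4 had 0 to 3 counts per library, so no mean is drawn for it.

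The question put to the single agents was whether either changed these genes alone. GDC-0941 lowered DLAT and PDHX and raised PDK2 (edgeR quasi-likelihood test, adjusted p under 0.05 over 14189 genes). These were 2 lower members and 1 higher member of the 9 tested, near the 20.0% of all tested genes that were lower and the 20.0% that were higher. GSK126 lowered all 5 subunits, PDK1 and PDK3, and raised PDK2 and PDP1, 7 lower members where 35.7% of all tested genes were lower and 2 higher where 40.0% were higher. In COMBO the same 7 genes were lower, where 39.2% of all tested genes were lower, and the same 2 were higher, where 43.3% were higher. The 3 comparisons share the DMSO libraries. The median log2 fold change of the 5 subunits was -0.12 in GDC, -0.49 in GSK and -0.92 in COMBO, beside 0.02, 0.06 and 0.05 for all tested genes.

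**Figure D2:**
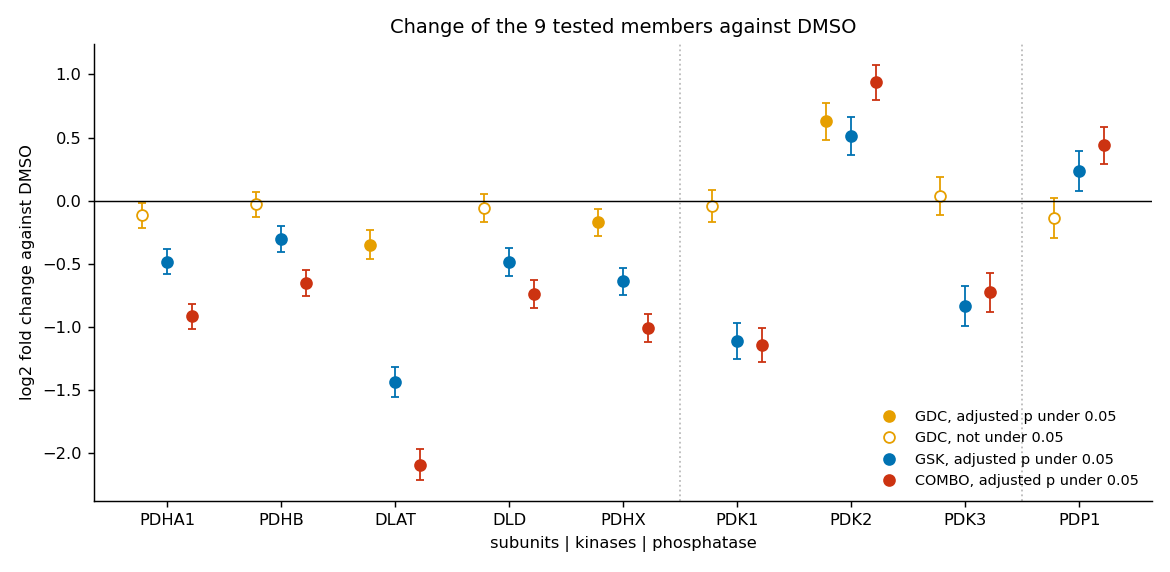
Log2 fold change of the 9 tested members against DMSO (y axis) in GDC, GSK and COMBO, with 95% intervals; filled points passed an adjusted p of 0.05. The subunits stepped down from GDC to GSK to COMBO, with DLAT lowest at -2.09, PDK1 and PDK3 lay at about the same place in GSK and COMBO, and PDK2 lay above 0 in all 3 arms.

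DLAT changed most. Its level was 407, 378 and 409 CPM with DMSO, 305, 333 and 299.7 with GDC, 152, 143 and 148 with GSK, and 89.0, 102 and 88.8 with COMBO (libraries A, B and C). No 2 arms overlapped. The fit gave a log2 fold change of -0.35 in GDC (95% interval -0.46 to -0.23, adjusted p 4.81e-05), -1.43 in GSK (-1.55 to -1.31, 2.00e-14) and -2.09 in COMBO (-2.21 to -1.97, 1.80e-17), the last of which is 4.26-fold lower. DLAT lies at chr11:112025408-112064404 on the plus strand (hg38), and its exons share positions with those of PIH1D2, a counted neighbour, so its counts are uncertain to that extent.

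PDHX, the protein that docks E3 on the core, was the next subunit in size of change. It stood at 154, 150.2 and 157 CPM with DMSO, 135, 139.8 and 135 with GDC, 99.4, 99.4 and 97.4 with GSK, and 74.3, 82.8 and 71.5 with COMBO, again with no overlap between arms. Its log2 fold change was -0.17 in GDC (-0.28 to -0.07, adjusted p 0.0106), -0.64 in GSK (-0.75 to -0.53, 9.49e-10) and -1.01 in COMBO (-1.12 to -0.90, 3.07e-13). Exons of PDHX (chr11:34915829-35020591) share positions with APIP.

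The E1 subunits moved less. PDHA1, the subunit that the kinases phosphorylate, had 187, 195 and 194 CPM with DMSO, 181, 172 and 179.7 with GDC, 138, 143 and 132 with GSK, and 96.1, 106 and 103 with COMBO. The arms did not overlap. In GDC its log2 fold change of -0.12 (-0.21 to -0.02) missed the threshold (adjusted p 0.0581), but passed it in 15 of 19 alternative analyses. It fell by 0.48 on the log2 scale in GSK (adjusted p 2.09e-08) and by 0.92 in COMBO (4.74e-13), to a level 1.89-fold below DMSO. PDHB, its partner, had 180.2, 182 and 183 CPM with DMSO, 172, 186 and 177 with GDC, 148, 153 and 142 with GSK, and 115, 123 and 109.7 with COMBO. GDC overlapped DMSO (log2 fold change -0.03, interval -0.13 to 0.07, adjusted p 0.659), and the GSK and COMBO libraries lay below both. PDHB fell by 0.30 in GSK (1.72e-05) and by 0.65 in COMBO (1.79e-10), the smallest change of the 5 subunits in both arms. PDHA1 (chrX:19343893-19361718) shares exon positions with MAP3K15 and has a pseudogene, PDHA1P1, while PDHB (chr3:58427630-58433857) overlaps no counted gene.

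DLD, the E3 component, had 564, 546 and 549 CPM with DMSO, 510.4, 550.5 and 534 with GDC, 399, 397 and 389.5 with GSK, and 318, 368 and 308 with COMBO. GDC again overlapped DMSO (log2 fold change -0.06, -0.17 to 0.05, adjusted p 0.425). DLD fell by 0.49 in GSK (7.32e-08) and by 0.74 in COMBO (7.28e-11). COMBO B was the highest COMBO library for each of the 5 subunits, and also for PDK1 and PDP1. It had the lowest share of reads outside genes in that arm, at 23.0% beside 25.3% in COMBO A and 23.5% in COMBO C. COMBO A nevertheless lay above COMBO C for every subunit except PDHA1, and the part of this share was not tested. DLD (chr7:107891162-107931730) shares exon positions with LAMB1.

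The kinases did not move as 1 group. PDK1 had 73.6, 68.0 and 74.8 CPM with DMSO, 69.3, 72.3 and 68.5 with GDC, 35.4, 32.2 and 32.9 with GSK, and 31.9, 35.7 and 29.6 with COMBO. The libraries formed a high pair of arms, DMSO and GDC, and a low pair, GSK and COMBO, with overlap inside each pair. Its log2 fold change was -0.04 in GDC (-0.17 to 0.08, adjusted p 0.609), -1.11 in GSK (-1.26 to -0.97, 1.11e-11) and -1.15 in COMBO (-1.28 to -1.01, 1.34e-12). PDK3, a kinase with high activity towards the complex, followed the same pattern. It had 136, 119 and 126 CPM with DMSO, 129, 116 and 145 with GDC, 71.2, 63.7 and 77.9 with GSK, and 75.2, 75.6 and 78.4 with COMBO, with log2 fold changes of 0.04 (-0.11 to 0.19, adjusted p 0.708), -0.83 (-1.00 to -0.67, 6.15e-09) and -0.73 (-0.88 to -0.57, 1.72e-08). Neither gene (PDK1 at chr2:172555373-172608669, PDK3 at chrX:24465244-24550466) overlaps a counted gene, and PDK1 has a pseudogene, PDK1P2.

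PDK2, the most widely expressed of the kinases across tissues, rose in every treated arm. It had 18.0, 21.4 and 21.2 CPM with DMSO, 32.6, 30.7 and 32.1 with GDC, 29.0, 30.8 and 28.2 with GSK, and 40.4, 38.9 and 39.0 with COMBO. All treated libraries lay above all DMSO libraries, the GDC and GSK libraries overlapped, and COMBO lay above both. The log2 fold change was 0.63 in GDC (0.48 to 0.77, adjusted p 8.64e-07), 0.52 in GSK (0.36 to 0.67, 2.10e-06) and 0.94 in COMBO (0.80 to 1.08, 5.11e-11), the last of which is 1.92-fold. PDK2 (chr17:50094737-50112152) shares exon positions with SAMD14. PDK4 had 0, 2 and 1 counts with DMSO, 2, 1 and 0 with GDC, 2, 2 and 0 with GSK, and 3, 0 and 0 with COMBO. Since 3 counts cannot be told from 0, the floor was 0.0675 to 0.341 CPM by library, so PDK4 (chr7:95583499-95596516) was at the floor in all 4 arms and no fold can be given.

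PDP1, the phosphatase that reactivates the complex, had 18.8, 19.1 and 18.2 CPM with DMSO, 16.4, 17.1 and 17.4 with GDC, 22.7, 22.9 and 20.3 with GSK, and 24.8, 26.7 and 24.0 with COMBO. The GDC libraries were all below DMSO and the GSK and COMBO libraries all above it. The GDC change of -0.14 (-0.30 to 0.02) did not pass the test (adjusted p 0.165). PDP1 rose by 0.23 in GSK (0.07 to 0.39, adjusted p 0.00927) and by 0.44 in COMBO (0.29 to 0.58, 1.05e-05). The GSK call was lost with DESeq2 (adjusted p 0.0860), with no filter on low counts (0.174), and without DMSO C (0.0852), GSK A (0.0836) or GSK B (0.124). PDP1 (chr8:93857807-93926068) shares exon positions with no counted gene.

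COMBO was next compared with each single agent, to ask what the second agent added. Against GDC, all 5 subunits, PDK1 and PDK3 were lower, 7 members where 38.0% of all tested genes were lower, and PDK2 and PDP1 were higher, 2 members where 37.9% were higher. The subunits ranged from -0.62 (PDHB) to -1.74 (DLAT), and PDK2 was 0.31 higher (0.18 to 0.45, adjusted p 0.000234). Against GSK, the 5 subunits alone were lower, where 26.9% of all tested genes were lower. They fell by 0.66 (DLAT, adjusted p 2.19e-08), 0.43 (PDHA1, 5.99e-07), 0.37 (PDHX, 1.32e-05), 0.35 (PDHB, 1.28e-05) and 0.25 (DLD, 0.000659). The 2 falling kinases did not pass the test there, at -0.03 for PDK1 (-0.19 to 0.12, adjusted p 0.736) and 0.11 for PDK3 (-0.06 to 0.27, 0.285). PDK2 was 0.42 higher (0.28 to 0.57, 3.85e-05) and PDP1 0.20 higher (0.05 to 0.36, 0.0325), 2 members where 19.0% of all tested genes were higher. The PDP1 call against GSK was lost with DESeq2 (adjusted p 0.0981), without GSK C (0.195) and without COMBO B (0.145).

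The interaction tested COMBO against the added effects of the single agents, as the COMBO change minus the GDC and GSK changes on the log2 scale. PDHA1, PDHB and DLAT were below the sum, 3 members where 16.5% of all tested genes were below it, and PDP1 was above it, 1 member where 4.86% were above. Genes of the pathway lists described below were below the sum as well, with counts given under the flagged results. The sum of the single agents was -0.60 for PDHA1, -0.33 for PDHB and -1.78 for DLAT, beside -0.92, -0.65 and -2.09 in COMBO. The differences were -0.32 (adjusted p 0.00220), -0.32 (0.00278) and -0.31 (0.00869), and the median interaction over all tested genes was -0.06. For PDP1 the sum was 0.10 and COMBO 0.44, a difference of 0.34 (0.12 to 0.56, adjusted p 0.0281). The other subunits, DLD and PDHX, were both at -0.20 and did not pass (adjusted p 0.0683 and 0.0620). The kinase PDK2 was also at -0.20 (-0.41 to -0.0012) and did not pass (adjusted p 0.146). For PDK1 the interval of the interaction was -0.19 to 0.21 and for PDK3 -0.16 to 0.29, with adjusted p of 0.962 and 0.706.

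All 4 interaction calls changed when single libraries were left out. PDHA1 was lost without GSK B (adjusted p 0.0506), and PDHB without GDC B (0.0617) or GSK B (0.0603). DLAT was lost without any 1 of DMSO A (0.0606), DMSO B (0.0807), GDC A (0.0545), GDC B (0.127), GSK A (0.101) and COMBO A (0.104). PDP1 was lost without GSK C (0.0783) or COMBO B (0.0636). Without COMBO B, DLD (0.00139) and PDHX (0.00927) passed, which made all 5 subunits lower than the sum.

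**Figure D3:**
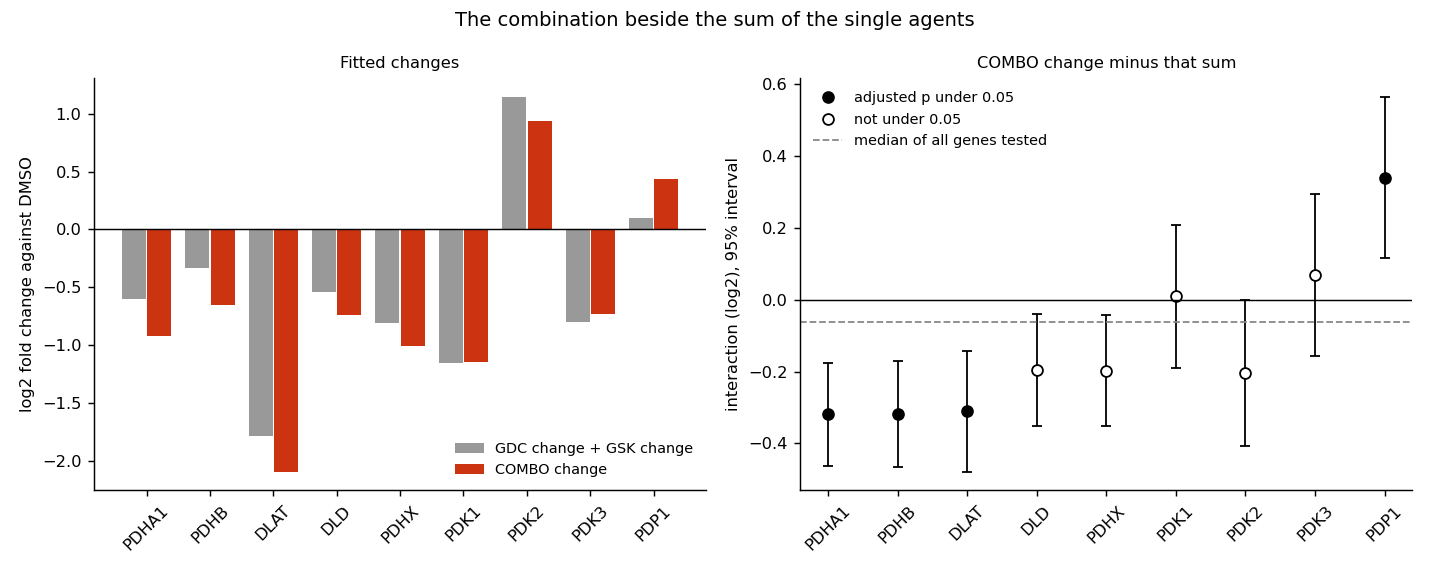
Left, log2 fold change against DMSO expected from adding the GDC and GSK changes (grey bars) and observed in COMBO (red bars) for the 9 tested members. Right, the difference between them with its 95% interval; filled points passed an adjusted p of 0.05, and the dashed line is the median of all tested genes at -0.06. The 5 subunits and PDK2 lie below 0 and PDP1 above it, while PDK1 and PDK3 lie near 0.

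With PDK1 and PDK3 lower and PDK2 higher, the make-up of the kinase transcripts was described as each kinase's share of their summed level per kb of exon union. PDK3 held the largest share in DMSO, at 45.9% ± 2.28, followed by PDK1 at 30.7% ± 0.732 and PDK2 at 23.4% ± 2.56 (SD, n = 3). The share of PDK2 was 32.3% ± 0.928 in GDC, 45.8% ± 2.86 in GSK and 52.3% ± 0.931 in COMBO, with no overlap between the libraries of any 2 arms. The share of PDK1 was 26.3% ± 1.96, 19.3% ± 0.803 and 15.8% ± 1.40 in the same arms, and that of PDK4 was at most 0.409% in any library. These shares depend on the length assigned to PDK3, whose exon union of 17456 bases is far longer than its MANE Select transcript of 1741 bases. With the MANE Select lengths, a choice added after seeing the data, PDK3 held 86.7% in DMSO and 75.8% in COMBO. PDK2 then rose from 7.19% ± 1.02 with DMSO to 10.7% ± 0.777 with GDC, 16.9% ± 1.99 with GSK and 20.2% ± 0.583 with COMBO, so the order of the arms was the same with either length while the leading kinase was not.

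**Figure D4:**
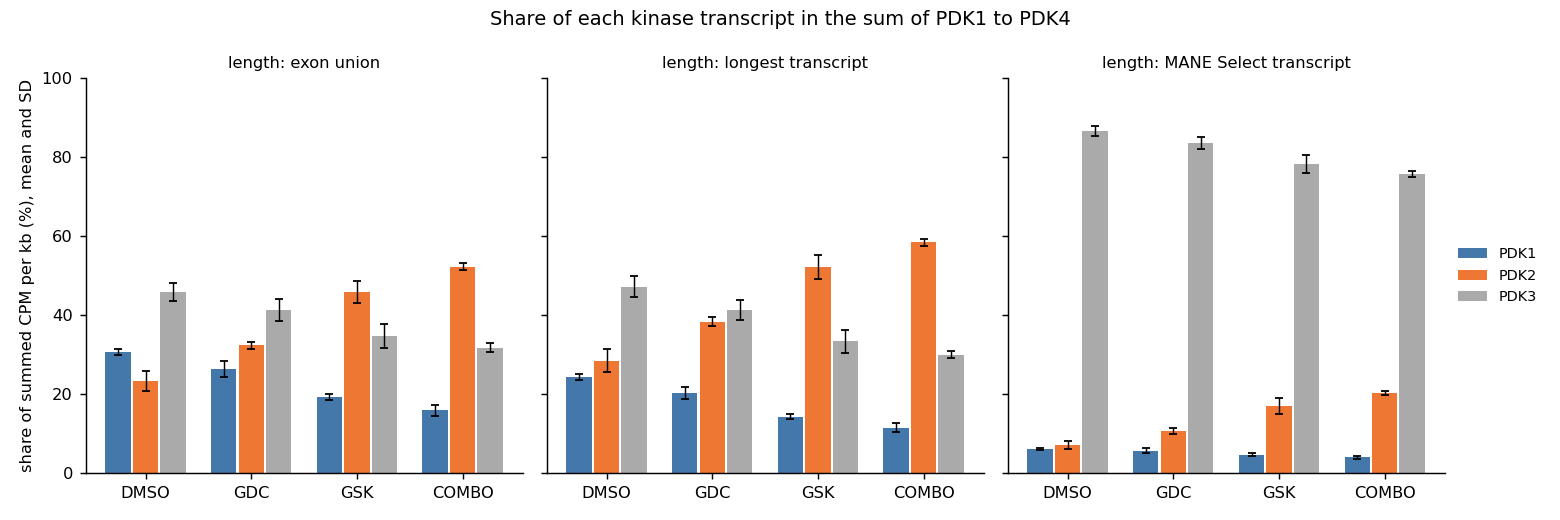
Share of PDK1, PDK2 and PDK3 in the summed level per kb of PDK1 to PDK4 (y axis, %) by arm, as means with SD over 3 libraries, with 3 choices of gene length. The share of PDK2 climbs from DMSO to COMBO in each panel, and PDK3 leads in all arms only with the MANE Select length; PDK4 is too low to be seen and is not drawn.

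The summed kinase level per kb of exon union was 15.8 CPM per kb with DMSO, 18.0 with GDC, 11.7 with GSK and 13.8 with COMBO, while the summed subunit level was 280, 256, 183 and 143. With the MANE Select lengths the kinase sum was 84.0, 89.0, 51.9 and 57.9 in the same arms, a larger difference between DMSO and COMBO. The ratio of kinases to subunits was 0.0566 ± 0.000782 with DMSO, 0.0704 ± 0.00473 with GDC, 0.0642 ± 0.00193 with GSK and 0.0968 ± 0.00669 with COMBO (SD, n = 3). Its mean was highest in COMBO in each of 4 ways of treating gene length. With the MANE Select length the libraries of COMBO (0.208 to 0.242) and GDC (0.171 to 0.215) overlapped. The mean in GSK lay above DMSO with the exon union and the longest transcript, and below it, by less than the spread of the libraries, with the MANE Select length (0.158 against 0.168) and with no length (0.145 against 0.148). These are ratios of transcripts and carry no test.

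Of 5 other regulators of the complex, 4 were tested, and in COMBO 2 rose and 1 fell, near the 43.3% and 39.2% of all tested genes. PDP2, the second catalytic phosphatase, stood at 63.7 CPM ± 2.55 with DMSO, 59.6 ± 1.58 with GDC, 36.8 ± 1.27 with GSK and 37.4 ± 2.84 with COMBO, and fell by 0.76 with COMBO (adjusted p 2.27e-10), the opposite direction to PDP1. PDPR, the regulatory subunit of the phosphatase, rose by 0.71 (1.01e-07), and SIRT3, a mitochondrial deacetylase, rose by 0.85 (1.40e-09). SIRT4, a lipoamidase that acts on the complex, was at 0.52 (0.01 to 1.03, adjusted p 0.0542), and passed in 4 of 19 alternatives, which were library totals (0.0103), a filter at a mean of 1 CPM (0.0380), and without DMSO A (0.0402) or COMBO C (0.0476). PDHA2, the testis form of the E1 alpha subunit, had 0 counts in all 12 libraries.

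Of 13 genes of lipoate synthesis and attachment, which make the lipoyl arm of DLAT, 11 fell and 2 rose in COMBO (median -0.51, beside 0.05 for all tested genes), where 39.2% of all tested genes fell and 43.3% rose. In GSK 9 fell and 0 rose, where 35.7% fell and 40.0% rose. In GDC 3 fell and 2 rose, near the 20.0% of all tested genes in each direction. BOLA3, an iron-sulphur cluster factor, fell most at -1.66 (adjusted p 3.42e-12), followed by NDUFAB1, the mitochondrial acyl carrier protein, at -1.17 (1.82e-14). LIPT1, a lipoyltransferase, rose by 0.37 (0.0186) and IBA57, another cluster factor, by 0.17 (0.0121). The LIPT1 call was lost with DESeq2 (0.104) and without DMSO A (0.0546), DMSO C (0.0741) or COMBO A (0.114), and the IBA57 call with DESeq2 (0.114), with no filter (0.143), with the compared arms alone (0.0532), and without DMSO A (0.0737) or COMBO B (0.0536). Of 3 tested genes of thiamine supply, 1 fell and 1 rose in COMBO, near the 39.2% and 43.3% of all tested genes. SLC19A2, a thiamine transporter of the plasma membrane, fell by 1.25 (adjusted p 2.84e-11). THTPA, a thiamine triphosphatase, rose by 0.33 (0.000219), and the transporter SLC19A3 had 0 counts in all libraries.

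Routes to and from pyruvate were lower in COMBO for 12 of 13 tested genes (median -1.25), in GSK for 10 and in GDC for 7. Of all tested genes, 39.2%, 35.7% and 20.0% were lower in these arms. In each arm 1 of the 13 was higher, where 43.3%, 40.0% and 20.0% of all tested genes were higher. The GDC count of higher genes ranged from 0 to 2 without 1 library. The 12 included both subunits of the mitochondrial pyruvate carrier, MPC1 at -0.70 (adjusted p 5.71e-08) and MPC2 at -1.30 (2.72e-14), which were looked at after their values were seen and are listed in the files as BRP44L and BRP44. LDHA, which reduces pyruvate to lactate and has pseudogenes that can share its reads, fell most at -2.57 (7.40e-21), followed by SLC16A7, a monocarboxylate transporter, at -1.50 (1.21e-08). GPT, an alanine aminotransferase, was the gene that rose in COMBO, by 1.12 (1.32e-06). In GDC it did not pass (0.41, adjusted p 0.0604), and the higher gene there was PC, at 0.19 (0.0237). PC was lower in COMBO, at -0.38 (2.69e-05). PKLR, a pyruvate kinase of liver and red cells, had 11 counts and ME3, a mitochondrial malic enzyme, 6 counts over all libraries, and neither was tested.

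Of 12 genes of the other 2-oxoacid dehydrogenases and of glycine cleavage, which use DLD as well, 5 fell and 5 rose in COMBO (median -0.12), near the 39.2% and 43.3% of all tested genes. In GDC 6 rose and 0 fell (median 0.39, beside 0.02 for all tested genes), where 20.0% of all tested genes moved each way. In GSK 5 rose and 5 fell, where 40.0% rose and 35.7% fell. In COMBO GCSH, the lipoylated protein of glycine cleavage, fell by 1.09 (adjusted p 8.32e-07) and DLST, the E2 component of the 2-oxoglutarate complex, by 0.66 (5.04e-11). OGDH, the E1 component of that complex, named after its value was seen, fell by 0.48 (1.04e-09). AMT, the aminomethyltransferase of glycine cleavage, rose by 2.01 (3.33e-05) from a low level of 0.729 CPM ± 0.207, and OGDHL, a relative of OGDH, by 1.21 (4.51e-12). Of 10 genes that use acetyl-CoA or make it by other routes, 4 rose and 4 fell in COMBO (median 0.03), again near the shares of all tested genes. In GDC 4 rose and 1 fell (median 0.06), and in GSK 5 rose and 3 fell (median 0.19). In COMBO CS, citrate synthase, fell by 1.03 (4.16e-16) and ACLY, ATP citrate lyase, by 0.92 (1.08e-14). CRAT, carnitine acetyltransferase, rose there by 1.44 (7.12e-12) and ACSS1, the mitochondrial acetyl-CoA synthetase, by 1.09 (2.11e-13).

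Among factors known to act on transcription of the kinase genes, 8 of 12 tested genes rose and 2 fell in COMBO (median 0.74), where 43.3% of all tested genes rose and 39.2% fell. In GSK 9 rose and 2 fell, where 40.0% rose and 35.7% fell, and in GDC 4 rose and 2 fell, where 20.0% moved each way. FOXO3, a forkhead factor that PI3K signalling holds in the cytoplasm, stood at 139 CPM ± 7.28 with DMSO, 201 ± 12.9 with GDC, 361 ± 14.4 with GSK and 582 ± 38.8 with COMBO, a log2 fold change of 2.07 with COMBO (adjusted p 2.11e-17). EPAS1, the hypoxia-inducible factor HIF-2 alpha, rose by 1.99 (4.32e-11) from a low level of 2.18 CPM ± 0.243. HIF1A of the same list, named after its value was seen, did not pass in COMBO (0.05, adjusted p 0.357). It was at -0.25 in GDC (adjusted p 0.000500) and 0.35 in GSK (2.42e-06). PPARGC1B, a coactivator of nuclear receptors, fell by 1.27 (1.33e-10) and ESRRA, an orphan nuclear receptor, by 0.68 (6.96e-10). ESRRG, its relative, and NR3C1, the glucocorticoid receptor, had 58 and 16 counts over all libraries and were not tested. PDK4 stayed at the floor in all arms beside these changes, as its counts above show.

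**Figure D5:**
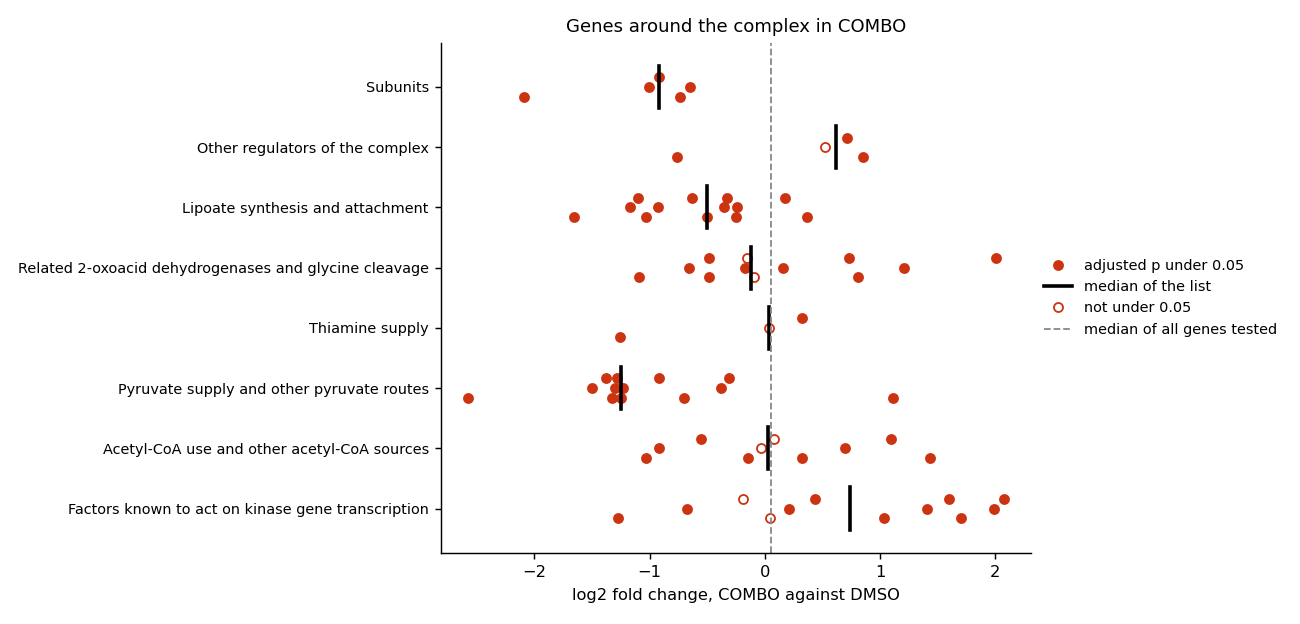
Log2 fold change in COMBO against DMSO (x axis) of the 5 subunits and of the tested genes of 7 lists around the complex, each point 1 gene. Filled points passed an adjusted p of 0.05, thick bars are the medians of the lists, and the dashed line is the median of all tested genes at 0.05. The subunits, the lipoate genes and the pyruvate routes lie mostly to the left, the factors that act on the kinase genes mostly to the right, and the related dehydrogenases and the acetyl-CoA genes on both sides.

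The genes whose log2 CPM ran closest to that of DLAT over the 12 libraries were RFC3, a DNA clamp loader subunit, STARD7, a lipid transfer protein, and SNRPD1, a spliceosome protein (Pearson r of 0.999 each). Closest to PDK1 were AMD1, an enzyme of polyamine synthesis (0.998), SLC16A1, a monocarboxylate transporter (0.996), and FLVCR1, a membrane transporter (0.996). SLC16A1 was at -0.08, -1.10 and -1.25 in GDC, GSK and COMBO, and RFC3 at -0.45, -1.87 and -2.78. Over the same libraries DLAT ran with PDHX at 0.996, DLD at 0.986, PDHA1 at 0.977 and PDHB at 0.964, and against PDK2 at -0.79. These values are descriptions over libraries that fall into 4 arms and carry no p.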

How the data were processed

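PolyA RNA-seq of C4.2B cells was analysed in 12 libraries, 3 per arm. Per the labels and the study's methods, the authors aligned reads to hg38 with STAR and counted them with HTSeq. The deposited values are whole read counts per gene symbol, not normalized. Versions, the annotation, the use of strand and the treatment of reads that map to several places are not given in the sources used here, so members that share exon positions with another gene, or have a pseudogene, are uncertain. The authors' DESeq2-normalized signal table was not used here. There were 8785218 to 44437751 counts in genes per library. Summary lines for reads not assigned to a gene, 23.7% to 33.7% of all reads, entered neither library sizes nor tests.

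Counts were scaled by TMM, filtered with filterByExpr (14189 of 23228 genes kept) and tested with the quasi-likelihood test in edgeR 4.0.16 (R 4.3.3), with all 12 libraries in a single fit with no covariate and a common biological coefficient of variation of 0.0499. Changed genes had a two-sided Benjamini-Hochberg adjusted p under 0.05 over all tested genes. Intervals are 95%, and floors cover counting error only. Positions and lengths are from GENCODE 44 on hg38, promoters from RefSeq on GRCh38.p14.

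The members and the gene lists were chosen with earlier results of these data known. Named genes were all 10 members, up to 2 genes per list that rose most and 2 that fell most in COMBO, listed genes removed by the filter, and the 3 genes most like DLAT and PDK1, the subunit and the regulator with the largest change. SIRT4, MPC1, MPC2, OGDH, HIF1A and PC were added after their values were seen. A further listed gene is not reported here, and the counts of its list leave it out.

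Alternatives were DESeq2 1.42.0, its size factors in edgeR, scaling by library totals, no filter, a filter at a mean of 1 CPM, a change of 1 or more on the log2 scale, the compared arms alone, a replicate block, each library left out, and other gene lengths.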

Additional observations from a re-analysis of the deposited data

Results flagged for a closer look

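4 members differed between the sum of the single agents and the combination, by the interaction test in the same edgeR fit. PDHA1 was at -0.32, PDHB at -0.32 and DLAT at -0.31 on the log2 scale, and PDP1 at 0.34. In each case the effect of GDC-0941 was not the same with GSK126 as without it. PDHA1 was 0.12 lower with GDC-0941 alone and 0.43 lower when it was added to GSK126, PDHB 0.03 and 0.35 lower, and DLAT 0.35 and 0.66 lower. PDP1 was at -0.14 with GDC-0941 alone and 0.20 higher when it was added to GSK126. Each of the 4 calls was lost without at least 1 library, as given with the results. The share of reads outside genes moved with the arms and was highest in COMBO, and its part in these differences was not tested. Values below the sum were not particular to the complex. They were called for 8 of 13 tested genes of pyruvate routes and 7 of 12 of the related dehydrogenases and glycine cleavage. The acetyl-CoA list had 7 of 10 and the lipoate list 3 of 13, where 16.5% of all tested genes were below. The other lists had 0 below the sum, and every list had 0 above it. These list counts were not put through the alternatives.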

How the results depend on the processing

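No member that passed the test changed direction under any of up to 19 alternatives. Scaling by library totals moved the median of all genes from 0.06 to 0.21 in GSK, from 0.05 to 0.26 in COMBO and from 0.02 to 0.19 in COMBO against GDC. The share of called genes that were higher then went from 52.8% to 64.0% in GSK, 52.5% to 63.3% in COMBO, 49.9% to 62.8% in COMBO against GDC and 41.4% to 52.3% in COMBO against GSK. In GDC it went from 50.0% to 38.7% with DESeq2 and 35.9% with no filter, and in the interaction from 22.7% to 33.4%, 35.2%, 40.7% and 55.4% with DESeq2, its size factors, a mean of at least 1 CPM and no filter. Among members that did not pass, PDHB in GDC turned to 0.0046 with library totals, PDK1 in COMBO against GSK to 0.019 with library totals and to as much as 0.030 without a library (-0.12 to 0.030 over the 12 libraries left out), PDK1 in the interaction to -0.065 without COMBO B (-0.065 to 0.11), and PDK3 in GDC to -0.0061 with DESeq2, -0.0036 with its size factors, -0.025 with no filter and as low as -0.084 without a library (-0.084 to 0.075). The cause was not tested.

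Asked for a change of 1 or more on the log2 scale, 0 members were higher in any comparison, and 0, 2, 3, 2, 0 and 0 were lower in GDC, GSK, COMBO, COMBO against GDC, COMBO against GSK and the interaction. Higher members numbered 1 with DESeq2 in GSK and in COMBO against GSK, and 1 with no filter in GSK. Without 1 library, higher members numbered 1 to 2 in GSK and in COMBO against GSK and 0 to 1 in the interaction, lower members 2 to 3 in GDC and 1 to 5 in the interaction. The letters A to C are shared between arms. Of 18 same-letter pairs, 2 had a correlation of deviations over 0.1, each of GDC with COMBO (median -0.022, range -0.084 to 0.188). Pairs with different letters were not compared, so these values cannot tell whether the letters pair samples. A replicate block left every count of members called as it was, for example 7 lower with COMBO.

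The shares of PDK1, PDK2 and PDK3 with MANE Select lengths, chosen after seeing the data, were 6.11%, 7.19% and 86.7% with DMSO, 5.63%, 10.7% and 83.7% with GDC, 4.60%, 16.9% and 78.4% with GSK and 3.98%, 20.2% and 75.8% with COMBO. With the longest transcript PDK1 held 24.3%, 20.2%, 14.2% and 11.5%, PDK2 28.5%, 38.4%, 52.2% and 58.5%, and PDK3 30.0% in COMBO. The ratio of kinases to subunits in DMSO, GDC, GSK and COMBO was 0.168, 0.195, 0.158 and 0.228 with MANE Select lengths and 0.148, 0.174, 0.145 and 0.207 with no length, and with the longest transcript 0.0540 in DMSO and 0.0665 in GSK. Depth limits PDK4 alone among the members.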

Other observations

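The 9 promoters listed for the members had a GC content of 58.3% (DLD) to 77.0% (PDK1), beside a median of 58.7% over 35116 promoters, and 8 of them lay above that median. Their CpG content relative to that set by base composition ran from 0.699 (PDHX) to 1.10 (DLD), above the median of 0.579 in all 9. Of the promoters not shown, that of PDHB held an E-box at 236 bases before the start and a further ACGTG at 32, that of PDHX an ACGTG at 122 and that of PDK3 an ACGTG at 61, and that of DLD held the NRF1 letters GCATGCGC at 21. The PDHA1 promoter held none of the 5 motifs. None of the 9 held the FOXO or the nuclear receptor letters.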
